A study of Mus musculus with 20 samples.

Results

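The genes described here are 10 genes of the osteoclast and of the RANK axis, followed across 20 libraries: Tnfsf11, Tnfrsf11a, Tnfrsf11b, Calcr, Oscar, Dcstamp, Ocstamp, Atp6v0d2, Acp5 and Ctsk. They were chosen by name, as the rows of the deposited table that carry these symbols, and all 10 were present among its 51789 genes. The study measured RNA in 2 compartments of the intervertebral disc, its soft centre, or nucleus pulposus (NP), and the layered collagen ring that encloses it, or annulus fibrosus (AF). All mice were of the BL6 strain and were killed at 24 months of age, after intraperitoneal injections each week that began at 18 months and went on for 6 months. The vehicle groups received DMSO, and the MDL-800 groups received MDL-800 in the same amount of DMSO, so every animal carried the solvent. MDL-800 is a small molecule that the series title ties to activation of SIRT6, a deacylase that acts on chromatin.

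There were 4 groups of 5 libraries: NP vehicle (libraries 1, 2, 3, 5 and 6), NP MDL-800 (15, 18, 19, 20 and 22), AF vehicle (8, 9, 10, 12 and 13) and AF MDL-800 (25, 27, 28, 29 and 30). The labels give no sex, and they do not say whether each library came from its own animal, so a p-value here measures the spread between these libraries. The protocol describes tissue dissected under a microscope, while other labels speak of primary cells.

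An osteoclast is a multinucleated cell of the macrophage lineage that dissolves bone. Its precursors carry the receptor RANK, and they mature when RANK is engaged by its ligand RANKL, which osteoblasts, osteocytes, hypertrophic chondrocytes and activated lymphocytes make; osteoprotegerin, a secreted decoy, takes up the ligand before it reaches the receptor. The intervertebral disc itself is not bone, but its outer ring joins the cartilage endplate and the vertebral rim, where bone is remodelled.

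The transcription factors PU.1, MITF, AP-1 and NFATc1 are known regulators of osteoclast genes, and the promoters of members that differed together between tissues are shown here with the letters of these factors' short motifs. RefSeq promoter windows (GRCm38.p6) were found for 6 of the 10 members, as 9 windows of 250 bases before a start site; Tnfrsf11b, Dcstamp, Ocstamp and Atp6v0d2 were not among them. The motifs GAGGAA (PU.1), TGANTCA (AP-1), CACGTG and CATGTG (E-boxes of MITF) were searched on both strands and are in capitals, so that TTCCTC and CACATG mark matches on the opposite strand. The windows printed are those of Ctsk (chr3:95498960-95499209, plus strand), the Acp5 start that lies furthest inside the gene (chr9:22130599-22130848, minus strand), Oscar (chr7:3616158-3616407, minus strand) and Tnfsf11 (chr14:78308044-78308293, minus strand), each read 5′ to 3′.
Ctsk: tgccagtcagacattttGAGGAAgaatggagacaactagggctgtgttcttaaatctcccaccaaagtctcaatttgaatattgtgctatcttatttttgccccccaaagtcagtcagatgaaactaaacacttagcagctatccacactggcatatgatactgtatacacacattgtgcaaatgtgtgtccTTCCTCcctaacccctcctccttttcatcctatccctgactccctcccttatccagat
Acp5: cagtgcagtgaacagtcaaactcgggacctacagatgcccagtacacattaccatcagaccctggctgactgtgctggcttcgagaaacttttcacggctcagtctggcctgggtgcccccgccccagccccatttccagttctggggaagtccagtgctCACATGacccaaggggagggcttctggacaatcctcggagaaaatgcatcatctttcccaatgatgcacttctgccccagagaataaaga
Oscar: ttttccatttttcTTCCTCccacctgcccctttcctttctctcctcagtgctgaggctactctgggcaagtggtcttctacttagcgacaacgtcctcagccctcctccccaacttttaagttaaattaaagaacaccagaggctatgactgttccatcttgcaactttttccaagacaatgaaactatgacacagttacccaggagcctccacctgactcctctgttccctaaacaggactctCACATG
Tnfsf11: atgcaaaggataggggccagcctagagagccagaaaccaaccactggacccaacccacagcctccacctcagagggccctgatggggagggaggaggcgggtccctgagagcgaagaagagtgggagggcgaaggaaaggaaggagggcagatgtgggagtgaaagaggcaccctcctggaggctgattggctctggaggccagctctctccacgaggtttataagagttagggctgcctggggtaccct
The Ctsk window held GAGGAA at 2 places, 233 and 58 bases before the start. The Oscar window held it at 237 bases before the start and held CATGTG at 6 bases before it. The Acp5 window held CATGTG at 90 bases before its start, and the Tnfsf11 window held none of the capitalised motifs. The other Acp5 windows, among them that nearest the annotated gene start, held none of these motifs and are not printed. Neither did the windows of Tnfrsf11a and Calcr, also not printed. Of the 9 windows, 2 held GAGGAA and 2 held CATGTG, where 23.3% and 12.3% of all 32851 windows of that length held them. TGANTCA and CACGTG were in no window of a member, and in 6.75% and 6.02% of all windows. The NFAT core GGAAA, which was not capitalised and overlaps GAGGAA where an A follows it, was in 6 of the 9 windows and in 55.6% of all windows. A match is a description of letters, not a binding site.

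Estimated depth ran from 12.7 to 22 M (megafragments) per library. Values are given as scaled FPKM, the deposited FPKM (fragments per kilobase of transcript, relative to the fragments of the library) divided by a factor for each library (0.933 to 1.06), and a log2 fold change is the difference of means of log2(scaled FPKM + 1). Adjusted p-values are from limma, two-sided, over 16383 genes, and a gene was called where the adjusted p was under 0.05. The labelled tissues were checked with markers. The summed level of 7 NP markers (T, Krt8, Krt18, Krt19, Shh, Noto, Cd24a) was 6610 to 9860 scaled FPKM in NP libraries and 978 to 4180 in AF libraries, and that of 6 AF markers (Tnmd, Scx, Mkx, Thbs4, Col1a1, Col1a2) was 33.6 to 207 in NP and 887 to 4400 in AF. AF libraries also carried more RNA of macrophage and bone marker genes. The summed level of 8 macrophage markers was 1100 to 2730 scaled FPKM in AF and 38.3 to 374 in NP, and that of 8 bone markers was 253 to 2090 in AF and 1.62 to 170 in NP. No marker of these 4 lists was at 0 in a whole group. In bulk tissue, fewer cells of a type and less RNA per cell cannot be told apart, which holds for each difference that follows.

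Between the tissues, 9 members were lower in NP and 1, the decoy receptor Tnfrsf11b, was higher. In vehicle libraries the groups of 5 did not overlap for 9 of the 10 members, against 41.0% of all genes tested, and in MDL-800 libraries they did not overlap for 10 of 10, against 49.1%. These shares are over the 16383 genes tested with limma, which do not include Calcr and Ocstamp. The 2 comparisons share no library. Of the 10 members, 8 reached 1 FPKM in at least 5 of the 20 libraries and were tested with limma: all 8 were called in vehicle libraries, where 55.7% of genes were called (33.9% lower and 21.8% higher in NP), and all 8 in MDL-800 libraries, where 62.8% were called (37.2% lower and 25.6% higher). Of these 8, 5 reached the filter almost wholly through AF (Tnfsf11, Oscar and Dcstamp through AF alone, Tnfrsf11a and Atp6v0d2 with 1 NP library). Passing the filter in this way favours a tissue difference in these 5, so neither the count of calls nor that of groups without overlap supports anything. The median log2 fold change of the 8 was -1.64 in vehicle libraries and -1.85 in MDL-800 libraries, beside -0.08 for all genes tested in each. The way these 5 passed the filter draws the median of the 8 down, so it supports nothing either. Calcr and Ocstamp lay under the filter and were tested by exact permutation. Quantile normalization in place of scaling moved the median of all genes by 0.29, from -0.08 to 0.20 on the log2 scale in vehicle libraries. It turned the split of all called genes from 3577 higher and 5550 lower in NP to 6474 higher and 3923 lower, and in MDL-800 libraries from 4188 and 6102 to 6919 and 4290. The direction of all 8 members tested was the same under it.

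**Figure D1:**
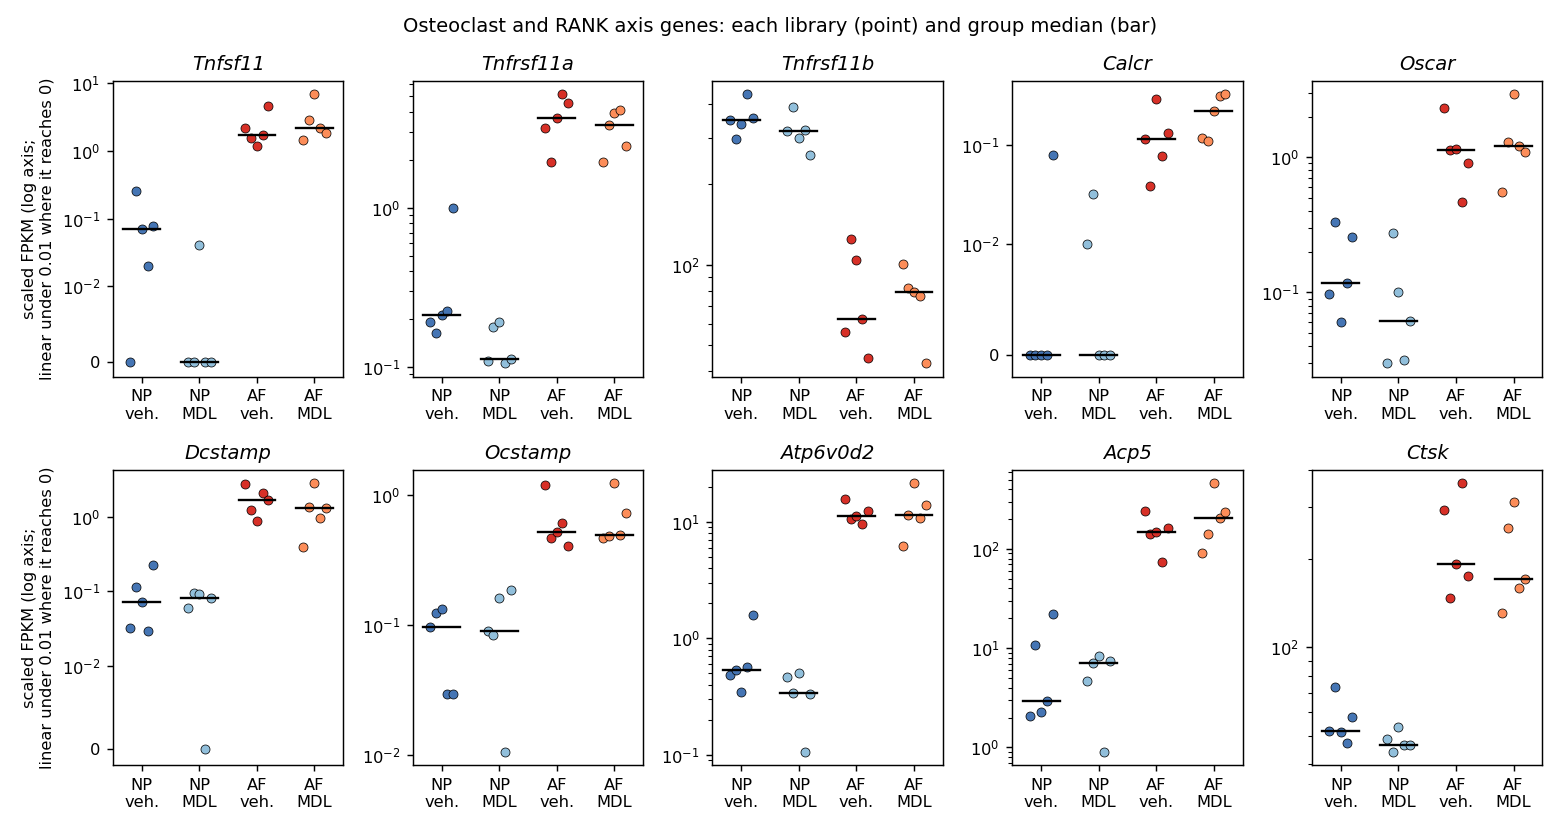
Scaled FPKM (vertical axis, logarithmic, and linear below 0.01 in panels that reach 0) of the 10 genes in each library, with a point for each of the 5 libraries of a group and a bar at the group median. For 9 genes the AF points lie above the NP points, with an overlap only for Calcr in vehicle libraries; Tnfrsf11b lies the other way, at 258 to 435 in NP and 42.7 to 124 in AF.

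RNA of the ligand was present in every AF library and scarce or absent in NP. Tnfsf11 encodes RANKL (ENSMUSG00000022015, chromosome 14, 78277445 to 78308043, minus strand, GRCm38), the protein that drives precursors to become osteoclasts. In AF vehicle libraries 8, 9, 10, 12 and 13 its level was 2.18, 1.53, 1.17, 1.72 and 4.56 scaled FPKM. NP vehicle libraries 1, 2, 3, 5 and 6 gave 0, 0.258, 0.0708, 0.0197 and 0.079 scaled FPKM. All AF libraries lay above all NP libraries, and NP values were those of a few fragments, since 1 fragment of its transcript is worth about 0.0242 FPKM at the median depth. In AF MDL-800 libraries 25, 27, 28, 29 and 30 its level was 1.47, 2.89, 6.82, 2.19 and 1.85 scaled FPKM. In NP MDL-800 libraries it was listed at 0 in 15, 18, 20 and 22 and at 0.0404 in 19. RANKL RNA was thus near the limit of detection in treated NP, and no ratio of means is given against it. The size of the log2 fold change against it is set largely by the pseudocount. The log2 fold change, NP minus AF, was -1.50 (standard error 0.23; limma adjusted p = 0.000262) in vehicle libraries and -1.87 (standard error 0.27; limma adjusted p = 0.000128) in MDL-800 libraries. The pseudocount of 1 holds these values down for a gene this low: with 0.1 they were -3.65 and -4.66.

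Tnfrsf11a encodes RANK, the receptor on osteoclast precursors (ENSMUSG00000026321, chromosome 1, 105780718 to 105847981, plus strand). AF vehicle libraries 8, 9, 10, 12 and 13 gave 3.15, 1.95, 3.68, 5.15 and 4.56 scaled FPKM. NP vehicle libraries 1, 2, 3, 5 and 6 gave 0.193, 0.165, 0.212, 0.227 and 0.997 scaled FPKM. NP vehicle library 6 was far above the other 4 of its group and still below the lowest AF library. In AF MDL-800 libraries 25, 27, 28, 29 and 30 the receptor was at 1.94, 3.33, 3.94, 4.1 and 2.44 scaled FPKM, and in NP MDL-800 libraries 15, 18, 19, 20 and 22 at 0.11, 0.179, 0.192, 0.106 and 0.113. The vehicle means were 3.7 ± 1.25 in AF and 0.359 ± 0.358 in NP (SD, n = 5), a ratio of means of 10.3. Its log2 fold change was -1.78 (standard error 0.22; limma adjusted p = 8.24e-05) in vehicle libraries and -1.83 (standard error 0.16; limma adjusted p = 4.89e-06) in MDL-800 libraries. With a pseudocount of 0.1 these became -3.22 and -3.72.

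Tnfrsf11b encodes osteoprotegerin, the secreted decoy that binds RANKL (ENSMUSG00000063727, chromosome 15, 54250619 to 54278484, minus strand), and it was the only member higher in NP. In NP vehicle libraries 1, 2, 3, 5 and 6 its level was 350, 297, 338, 435 and 356 scaled FPKM, and in AF vehicle libraries 8, 9, 10, 12 and 13 it came to 55.9, 124, 104, 62.7 and 44.8. In NP MDL-800 libraries 15, 18, 19, 20 and 22 its level was 318, 389, 299, 320 and 258 scaled FPKM, and in AF MDL-800 libraries 25, 27, 28, 29 and 30 it came to 100, 82, 79.1, 76.5 and 42.7. The lowest NP library was above the highest AF library under both treatments. The vehicle means were 355 ± 50.2 in NP and 78.4 ± 34.2 in AF (SD, n = 5), or 4.53 times as high in NP. The log2 fold change, NP minus AF, was 2.26 (standard error 0.26; limma adjusted p = 4.77e-05) in vehicle libraries and 2.08 (standard error 0.20; limma adjusted p = 1.1e-05) in MDL-800 libraries. Tnfrsf11b passed the filter in all 20 libraries, so this call did not depend on the filter.

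The ligand was thus higher in AF and its decoy in NP. As a ratio of scaled FPKM, AF vehicle libraries held 11.2 to 102 of Tnfsf11 per 1000 of Tnfrsf11b (median 27.5), and AF MDL-800 libraries held 14.6 to 86.2 (median 35.2). NP vehicle libraries held 0 to 0.867 (median 0.21), and NP MDL-800 libraries 0 to 0.135 (median 0). In every library the decoy was above the ligand, by 9.83-fold at the least, in AF vehicle library 13. These ratios describe the libraries and were not tested.

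**Figure D2:**
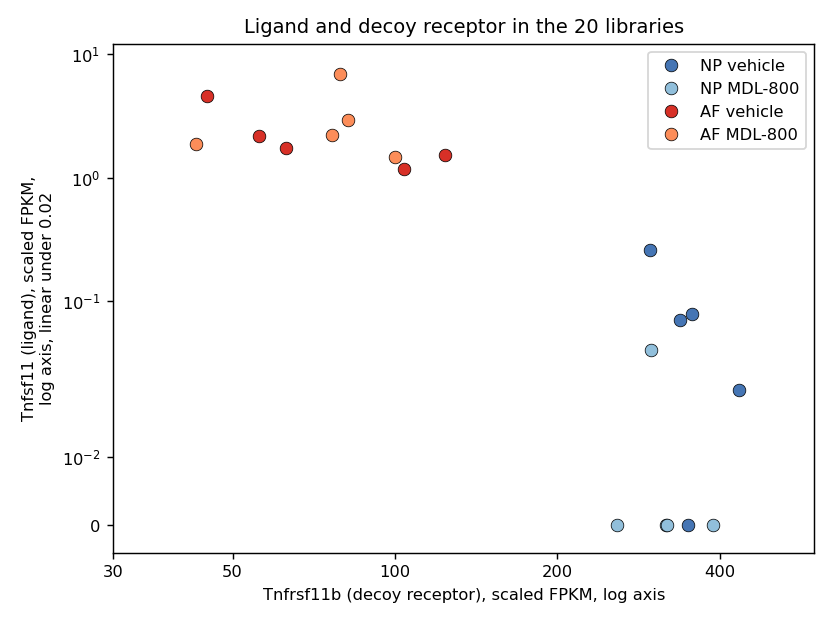
Tnfsf11 (vertical axis, logarithmic, linear below 0.02) against Tnfrsf11b (horizontal axis, logarithmic), both in scaled FPKM, with 1 point for each of the 20 libraries. AF libraries lie at upper left, with 1.17 to 6.82 of the ligand and 42.7 to 124 of the decoy, and NP libraries at lower right, with 0 to 0.258 of the ligand and 258 to 435 of the decoy.

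Receptors of the osteoclast surface were low in both tissues. Calcr encodes the calcitonin receptor, through which the hormone calcitonin halts resorption (ENSMUSG00000023964, chromosome 6, 3685680 to 3764714, minus strand). It was at 0.0386 to 0.286 scaled FPKM in AF vehicle and 0.108 to 0.322 in AF MDL-800. In NP it was listed at 0 in 7 of 10 libraries, with NP vehicle library 6 at 0.079 and NP MDL-800 libraries 15 and 18 at 0.01 and 0.0316. Only the value of NP vehicle library 6 overlapped the AF range. The log2 difference, NP minus AF, was -0.15 in vehicle libraries (exact two-sided permutation test, p = 0.0238) and -0.26 in MDL-800 libraries (exact p = 0.0079, the smallest that 5 against 5 allows). With a pseudocount of 0.1 it was -0.94 and -1.48. With a value of 0.0139 FPKM for 1 fragment, these levels rest on few fragments, and without NP vehicle library 1, 2, 3 or 5 the exact p in vehicle libraries was 0.0556.

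Oscar encodes an immunoglobulin-like receptor that binds collagen and signals beside RANK (ENSMUSG00000054594, chromosome 7, 3609813 to 3616157, minus strand). It ranged from 0.466 to 2.31 scaled FPKM in AF vehicle and from 0.0607 to 0.33 in NP vehicle. Under MDL-800 it ranged from 0.554 to 2.91 in AF and from 0.0299 to 0.274 in NP. Its vehicle means differed 6.92-fold. On the log2(scaled FPKM + 1) scale its fold change in vehicle libraries was -0.86 (standard error 0.19; limma adjusted p = 0.00333), and in MDL-800 libraries it was -1.07 (standard error 0.21; limma adjusted p = 0.00113). With a pseudocount of 0.1 these were -2.19 and -2.87. With quantile normalization in place of scaling, Oscar was no longer called, at -0.30 (limma adjusted p = 0.223) in vehicle libraries and -0.50 (limma adjusted p = 0.0642) in MDL-800 libraries. Relative to the median of all genes, its vehicle difference was -0.50 after quantile normalization and -0.77 after scaling.

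Both genes of cell fusion were lower in NP. Dcstamp encodes DC-STAMP (ENSMUSG00000022303, chromosome 15, 39745930 to 39760938, plus strand), a membrane protein needed for precursors to fuse into a multinucleated cell. It ranged from 0.877 to 2.75 scaled FPKM in AF vehicle and from 0.0296 to 0.227 in NP vehicle, with vehicle means of 1.71 ± 0.733 and 0.0946 ± 0.0816 (SD, n = 5). Under MDL-800 it ranged from 0.398 to 2.82 in AF and from 0 to 0.0947 in NP. Its log2 fold change was -1.27 (standard error 0.18; limma adjusted p = 0.000174) in vehicle libraries. In MDL-800 libraries it was -1.07 (standard error 0.22; limma adjusted p = 0.00153), and with quantile normalization -0.56 (limma adjusted p = 0.0506). A pseudocount of 0.1 gave -3.21 in vehicle and -2.96 in MDL-800 libraries. Ocstamp encodes OC-STAMP, another fusion protein (ENSMUSG00000027670, chromosome 2, 165393760 to 165400405, minus strand). It ranged from 0.405 to 1.18 scaled FPKM in AF vehicle and from 0.0296 to 0.132 in NP vehicle, and under MDL-800 from 0.466 to 1.22 in AF and from 0.0106 to 0.185 in NP. Its log2 difference was -0.58 in both vehicle and MDL-800 libraries (exact two-sided permutation test, p = 0.0079 in each), and with a pseudocount of 0.1 it was -1.97 and -1.90.

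The genes of acid and of matrix digestion were the most abundant of the osteoclast side. Atp6v0d2 encodes the d2 subunit of the vacuolar proton pump, which acidifies the space under the osteoclast (ENSMUSG00000028238, chromosome 4, 19876841 to 19922605, minus strand). In AF vehicle libraries 8, 9, 10, 12 and 13 its level was 15.7, 10.6, 11.3, 9.58 and 12.3 scaled FPKM. NP vehicle libraries 1, 2, 3, 5 and 6 gave 0.482, 0.536, 0.344, 0.572 and 1.6. AF values were close together, and NP vehicle library 6 was again the highest NP library. In AF MDL-800 libraries 25, 27, 28, 29 and 30 its level was 6.14, 11.5, 21.4, 10.9 and 13.9 scaled FPKM, and in NP MDL-800 libraries 15, 18, 19, 20 and 22 it came to 0.468, 0.337, 0.505, 0.106 and 0.33. Its vehicle means were 11.9 ± 2.37 in AF and 0.707 ± 0.507 in NP (SD, n = 5), a ratio of 16.8. The log2 fold change was -2.94 (standard error 0.20; limma adjusted p = 3.98e-06) in vehicle libraries and -3.26 (standard error 0.25; limma adjusted p = 2.83e-06) in MDL-800 libraries.

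Acp5 encodes tartrate-resistant acid phosphatase (TRAP), the classic stain for osteoclasts, which some macrophages make as well (ENSMUSG00000001348, chromosome 9, 22126727 to 22135711, minus strand). In AF vehicle libraries 8, 9, 10, 12 and 13 its level was 241, 141, 147, 73.7 and 161 scaled FPKM, and in NP vehicle libraries 1, 2, 3, 5 and 6 it came to 2.07, 10.7, 2.28, 2.92 and 22.2. In AF MDL-800 libraries 25, 27, 28, 29 and 30 its level was 91.5, 143, 460, 204 and 234 scaled FPKM, and in NP MDL-800 libraries 15, 18, 19, 20 and 22 it came to 4.7, 7.08, 8.42, 0.9 and 7.47. Both tissues spread widely, and the groups did not overlap between tissues. Acp5 had the largest tissue difference of the 8 members tested on the log2(scaled FPKM + 1) scale, with a log2 fold change of -4.49 (standard error 0.56; limma adjusted p = 7.64e-05) in vehicle libraries and -5.07 (standard error 0.50; limma adjusted p = 1.14e-05) in MDL-800 libraries. Its exons overlap 6530413G14Rik on the opposite strand, which was at 0 to 0.336 scaled FPKM in the 20 libraries; whether the counting used strand is not given in the sources used here.

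Ctsk encodes cathepsin K, the collagen-cleaving protease of osteoclasts, which fibroblasts also make (ENSMUSG00000028111, chromosome 3, 95499256 to 95509362, plus strand). In AF vehicle libraries 8, 9, 10, 12 and 13 its level was 293, 147, 191, 361 and 175 scaled FPKM, and in NP vehicle libraries 1, 2, 3, 5 and 6 it came to 51.7, 73.3, 51.4, 47.1 and 57.7. In AF MDL-800 libraries 25, 27, 28, 29 and 30 its level was 130, 254, 312, 159 and 170 scaled FPKM, and in NP MDL-800 libraries 15, 18, 19, 20 and 22 it came to 48.7, 44, 53.5, 46.3 and 46.6. Ctsk was the member of the osteoclast side with a steady and high level in NP. Its vehicle means were 233 ± 90.3 in AF and 56.2 ± 10.3 in NP (SD, n = 5), a ratio of 4.15. The log2 fold change was -1.97 (standard error 0.24; limma adjusted p = 6.53e-05) in vehicle libraries and -2.01 (standard error 0.21; limma adjusted p = 1.75e-05) in MDL-800 libraries. The 2 lysosomal enzymes stood in different proportion in the tissues: scaled FPKM of Ctsk per unit of Acp5 was 1.04 to 4.9 in AF vehicle and 0.677 to 1.78 in AF MDL-800, but 2.6 to 25 in NP vehicle and 6.21 to 51.5 in NP MDL-800. NP vehicle library 6, at 2.6, was the one NP library within the AF range.

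**Figure D3:**
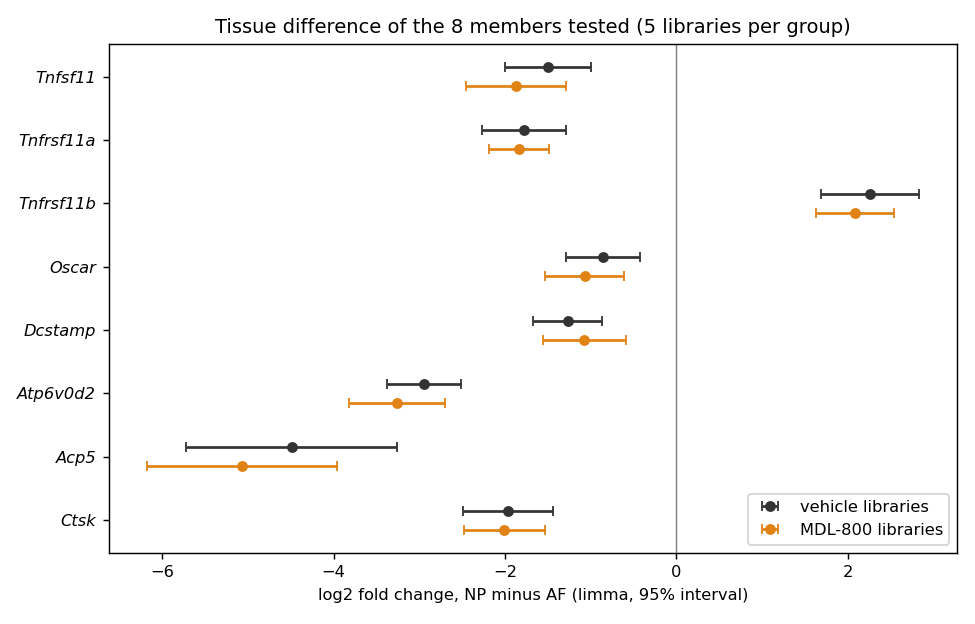
Log2 fold change, NP minus AF (horizontal axis), of the 8 genes tested with limma in vehicle libraries and in MDL-800 libraries; points are estimates and lines 95% intervals. Acp5 lies furthest to the left, at -4.49 and -5.07, and Tnfrsf11b alone lies to the right, at 2.26 and 2.08.

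Per length, the order of median levels in AF vehicle libraries was Ctsk (191 scaled FPKM), Acp5 (147), Tnfrsf11b (62.7), Atp6v0d2 (11.3), Tnfrsf11a (3.68), Tnfsf11 (1.72), Dcstamp (1.65), Oscar (1.14), Ocstamp (0.515) and Calcr (0.115). Neighbours in this order had overlapping ranges, apart from Tnfrsf11b and Atp6v0d2, Atp6v0d2 and Tnfrsf11a, and Ocstamp and Calcr. In NP vehicle libraries Tnfrsf11b came first, at a median of 350 scaled FPKM, then Ctsk (51.7) and Acp5 (2.92), and the other 7 had medians of 0.536 or less. Within a tissue, the vehicle and MDL-800 ranges overlapped for each of the 10.

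NP vehicle library 6 and markers of other cells moved together with several of these values. That library had the highest level among NP libraries for 5 of the 10 members (Tnfrsf11a, Calcr, Dcstamp, Atp6v0d2 and Acp5). Its summed macrophage markers stood at 374 scaled FPKM, against 40.3 to 136 in the other NP vehicle libraries, and its summed bone markers at 94.5, against 10.2 to 41.9. In NP MDL-800 library 19 the bone markers stood higher, at 170. Library 6 was also the highest NP library for neutrophil (2970), B and plasma cell (49.3) and T cell (4.75) markers. It was not the highest for red blood cell, skeletal muscle, endothelium or hypertrophic cartilage markers. The part of such cells in the result was not tested. Without NP vehicle library 6 all 8 members tested were still called between the tissues in vehicle libraries. Most of the 8 reached the filter almost wholly through AF, so that count supports nothing. Tnfrsf11a was then at -1.93 and Atp6v0d2 at -3.10 on the log2 scale. In both tissue comparisons every tested marker of macrophages (8), bone (8), neutrophils (7), T cells (6), B and plasma cells (5), red blood cells (5), skeletal muscle (5), endothelium (5) and hypertrophic cartilage (3) was called lower in NP. Over all genes tested, 33.9% were called lower in vehicle libraries and 37.2% in MDL-800 libraries. Markers scarce in NP could reach the filter mainly through AF, so these counts support nothing. The T cell markers, for one, summed to 0.487 to 4.75 scaled FPKM in NP. The 9 members lower in NP moved between tissues with these lists and Tnfrsf11b against them, and the part of these cells was not tested.

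Treatment was compared within each tissue, and no member passed the test in either. In NP, 0 of 8 members were called, where 0.250% of genes were called, and 0 had an unadjusted p under 0.05, where 14.1% of genes had. All 8 estimates were below 0, with a median log2 fold change, MDL-800 minus vehicle, of -0.145 beside -0.0329 for all genes. None of the 10 members had groups without overlap, against 4.50% of the genes tested with limma. The smallest p was that of Ctsk, at -0.22 (95% interval -0.46 to 0.03; limma adjusted p = 0.427). Atp6v0d2 was at -0.31 (95% interval -0.69 to 0.08; limma adjusted p = 0.462), Tnfrsf11a at -0.22 (-0.54 to 0.10; limma adjusted p = 0.525) and Tnfrsf11b at -0.17 (-0.44 to 0.11; limma adjusted p = 0.599). Tnfsf11 was at -0.10 (-0.27 to 0.07; limma adjusted p = 0.595), with 4 of 5 libraries listed at 0 under MDL-800 and 1 of 5 under vehicle. The interval of Acp5 was the widest, from -1.52 to 1.27, and without NP vehicle library 6 its estimate turned from -0.12 to 0.34. Calcr and Ocstamp differed by -0.01 and 0.03 on the log2 scale (exact two-sided permutation test, p = 1 and 0.548). The vehicle group in this comparison is the same one used in the vehicle tissue comparison.

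In AF, 0 of 8 members were called, as were 0% of all genes, and 0 had an unadjusted p under 0.05, where 1.65% of genes had. None of the 10 had groups without overlap, against 0.226% of the genes tested with limma. Of the 8 estimates 5 were above 0, with a median of 0.01 on the log2 scale beside 0.01 for all genes. Acp5 had the largest estimate, 0.45 (95% interval -0.48 to 1.38; limma adjusted p = 1). The estimate for Tnfsf11 was 0.27 (-0.47 to 1.02; limma adjusted p = 1), and without MDL-800 library 28 it was 0.0015. Tnfrsf11b was at 0.01 (-0.67 to 0.69; limma adjusted p = 1), so with 5 libraries per group a rise or fall of the decoy up to about these bounds was not excluded. Calcr differed by 0.10 and Ocstamp by 0.04 on the log2 scale (exact two-sided permutation test, p = 0.19 and 0.762). Markers of other cells leaned in different directions in the same comparison. All 8 macrophage markers had estimates below 0, with a median of -0.28, 0 called and 0 at an unadjusted p under 0.05, and their summed level was 1430 to 2730 scaled FPKM in AF vehicle and 1100 to 2490 in AF MDL-800. All 8 bone markers had estimates above 0, with a median of 0.76, 0 called and 3 at an unadjusted p under 0.05, and 2 of 3 markers of hypertrophic cartilage were at an unadjusted p under 0.05, with 0 called. The summed bone markers were 253 to 1170 scaled FPKM in AF vehicle and 857 to 2090 in AF MDL-800. Estimates were also above 0 for 7 of 7 neutrophil, 5 of 5 endothelium and 3 of 3 hypertrophic cartilage markers. They were above 0 for 4 of 5 red blood cell and 2 of 5 B and plasma cell markers. The same held for 1 of 5 skeletal muscle and 0 of 6 T cell markers, and 0 of these were called. The part of these cells in the members' values was not tested.

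**Figure D4:**
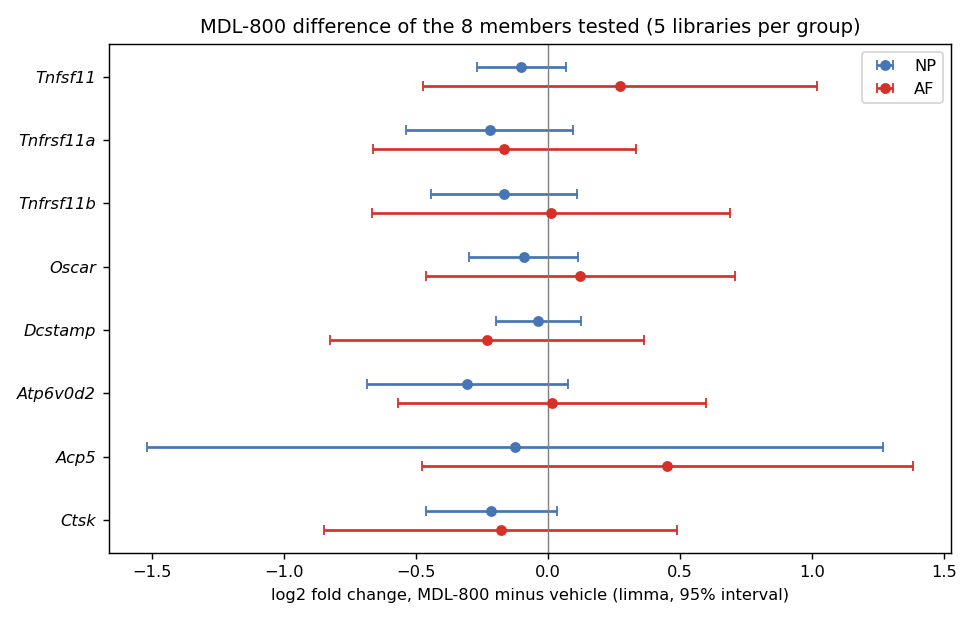
Log2 fold change, MDL-800 minus vehicle (horizontal axis), of the 8 genes tested with limma in NP and in AF; points are estimates and lines 95% intervals. Every interval includes 0, and the widest, for Acp5 in NP, runs from -1.52 to 1.27.

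The difference of the MDL-800 effect between NP and AF was tested in a fit that took all 20 libraries as independent. It is at once the difference of the tissue effect between treatments. Of the 8 members 0 were called, as were 0% of genes, and 0 had an unadjusted p under 0.05, where 3.73% of genes had. The estimates ran from -0.58 for Acp5 (95% interval -2.25 to 1.10) to 0.20 for Dcstamp (-0.41 to 0.81; limma adjusted p = 0.9997 in each). A difference in response between the tissues was therefore not detected for these genes, and the intervals given include differences of either sign.

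Within AF the members varied from library to library under both treatments. MDL-800 library 28 was the highest of the 10 AF libraries for 6 of the 10 members: Tnfsf11 (6.82 scaled FPKM), Oscar (2.91), Dcstamp (2.82), Ocstamp (1.22), Atp6v0d2 (21.4) and Acp5 (460). MDL-800 library 25, of the same group, was the lowest for 4: Tnfrsf11a (1.94), Dcstamp (0.398), Atp6v0d2 (6.14) and Ctsk (130). Between the highest and the lowest AF library Dcstamp differed 7.09-fold and Acp5 6.24-fold, and Tnfrsf11a differed 2.65-fold. Vehicle library 12 combined the highest Ctsk (361 scaled FPKM) and Tnfrsf11a (5.15) with the lowest Acp5 (73.7) and Oscar (0.466), so the members did not rise and fall as 1 block. Summed macrophage markers in libraries 28, 25 and 12 were 2050, 1500 and 1910 scaled FPKM and summed bone markers 1440, 857 and 253. These were within the AF ranges of 1100 to 2730 and 253 to 2090, with vehicle library 12 at the lower end for bone, and their part was not tested.

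**Figure D5:**
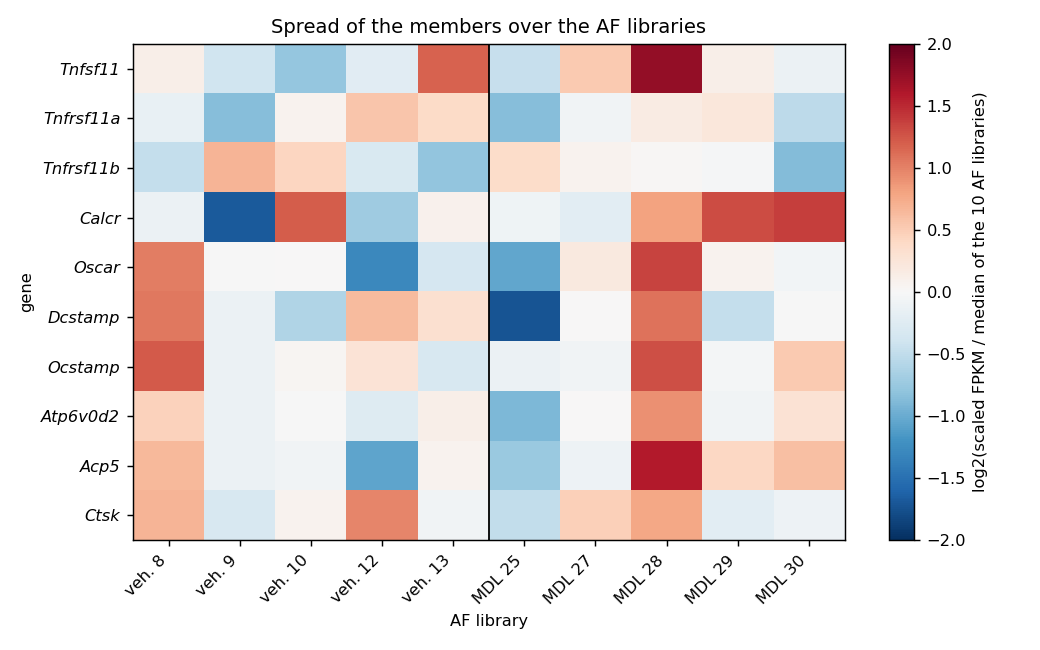
Log2 of the scaled FPKM of each of the 10 genes (rows) divided by its median over the 10 AF libraries (columns; vehicle at left of the line, MDL-800 at right), as colour from blue (below the median) to red (above). MDL-800 library 28 is red for most rows, MDL-800 library 25 is blue for most, and vehicle library 12 is red for Ctsk and Tnfrsf11a and blue for Acp5 and Oscar.

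The genes whose pattern was most like each member were found over 20 libraries by Pearson's r of log2(scaled FPKM + 1) after the group means were taken out, among genes with a mean of at least 1 scaled FPKM; the points share 4 groups and the r values are descriptions. Each named gene was picked as the highest of many compared, so a high r is in part the result of that choice. Tnfsf11 was most like Car12 (r = 0.905), Runx2 (0.875), a transcription factor of osteoblasts, and Tmie (0.871). Tnfsf11 varied little in NP (0 to 0.258 scaled FPKM), so its r values rest mainly on AF libraries, where MDL-800 library 28 stood highest at 6.82. Tnfrsf11a was most like Mrc1 (0.916), the macrophage mannose receptor, Rgl1 (0.909) and Ifi207 (0.902). Tnfrsf11b was most like AC118222.2 (0.890), Olfm1 (0.878) and Gja1 (0.865), a gap junction protein. Oscar was most like Tm4sf19 (0.866), St8sia6 (0.838) and Phex (0.809), a gene of osteocytes. Atp6v0d2 was most like Slc37a2 (0.867), Gm20056 (0.844) and Suv39h2 (0.833). Acp5 was most like Heatr1 (0.842), Mmp9 (0.811), a gelatinase of osteoclasts and neutrophils, and Mapre1 (0.808). Ctsk was most like Postn (0.838), a matrix protein of fibrous tissue, Ptgfr (0.835) and Rnf185 (0.813), and Dcstamp was most like Msl1 (0.836), Wdr82 (0.832) and Cnot6 (0.828). No gene was in the top 3 of more than 1 member.

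Other genes of the pathway were taken from 5 lists of 41 genes, of which 38 were tested (Siglec15, Il10 and Il4 lay under the filter). In vehicle libraries 26 were lower and 2 higher in NP, and in MDL-800 libraries 23 were lower and 4 higher, where 33.9% and 21.8%, and 37.2% and 25.6%, of all genes were called lower and higher. Genes scarce in NP could reach the filter mainly through AF, which favours calls lower in NP in these lists. Of 5 genes of the CSF1 and myeloid lineage list, 3 were lower and 1 higher in vehicle libraries. Spi1, which encodes PU.1, had vehicle means of 4.84 ± 5.85 scaled FPKM in NP and 62.9 ± 26.4 in AF (SD, n = 5; log2 fold change -3.88, standard error 0.57; limma adjusted p = 0.00022). Csf1, the growth factor that keeps precursors alive, was at 5.55 ± 0.739 in NP and 24.5 ± 7.29 in AF (log2 fold change -1.92; limma adjusted p = 2.9e-05). Mitf, the transcription factor of the E-boxes above, was higher in NP, at 25.4 ± 7.18 against 14.5 ± 2.51 (log2 fold change 0.74; limma adjusted p = 0.00525).

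Of 10 genes of RANK signalling and its transcription factors, 6 were lower in NP in vehicle libraries and 0 higher. Nfatc1, the master regulator of osteoclast formation, was at 15.3 ± 3.27 scaled FPKM in NP and 32.1 ± 8.51 in AF (log2 fold change -1.01; limma adjusted p = 0.0015). Prdm1, the repressor Blimp1, was at 0.395 ± 0.201 and 1.57 ± 0.554 (log2 fold change -0.87; limma adjusted p = 0.00155). The costimulatory list had 6 of 6 tested genes lower in NP, with the adaptors Fcer1g at -4.38 and Tyrobp at -4.22 on the log2 scale (limma adjusted p = 0.000172 and 0.000271); both adaptors serve macrophages and neutrophils as well.

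Of 12 genes of attachment, acid and resorption, 7 were lower in NP and 1 higher in vehicle libraries. Mmp9 was at -3.76 and Itgb3, a subunit of the osteoclast's vitronectin receptor, at -3.06 on the log2 scale (limma adjusted p = 4.14e-05 and 8.55e-05). Snx10, a sorting nexin needed for osteoclast acid secretion, was higher in NP, at 170 ± 19.7 scaled FPKM against 60.5 ± 21.9 in AF (log2 fold change 1.53; limma adjusted p = 0.000156). Of 5 tested genes that restrain osteoclast formation, 4 were lower in NP, among them Irf8, a myeloid transcription factor, at -3.13 on the log2 scale (limma adjusted p = 4.26e-05). Under MDL-800 0 of the 38 were called in NP (smallest limma adjusted p = 0.0669) and 0 in AF. In NP 5 had an unadjusted limma p under 0.05, where 14.1% of all genes had. In AF 1 had, where 1.65% of all genes had. The difference between tissues gave 0 calls and 2 at an unadjusted limma p under 0.05, where 3.73% of all genes had such a p.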

How the data were processed

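Total RNA libraries, stranded and depleted of ribosomal RNA, were made from dissected tissue, per the labels' protocols. The authors deposited 1 table of FPKM values with 2 decimals, a column for each of the 20 libraries; STAR 2.7.11b and mm10 are named per the submitters' processing notes, and the counting program and annotation are not given in the sources used here. All value columns were matched to samples by name.

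Each library was divided by a factor, its median ratio to the genes' geometric means, from 11308 genes that reached 1 FPKM in all 20. The 16383 genes that reached 1 FPKM in 5 or more libraries were tested on log2(scaled FPKM + 1), which understates changes of low genes, with limma 3.58.1 (lmFit, eBayes with trend; R 4.3.3), Benjamini-Hochberg adjusted. The script was tested on simulated data. Each pair of groups was fitted alone, and the difference of differences in all 4 groups. Members under the filter had an exact permutation test in Python 3.11.15.

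Depth was estimated from the steps in low values of 9285 genes, on which 85.6% to 89.7% of values fell (within 0.15 fragments), so no count test was run. Coordinates are from GENCODE M21 (51596 of 51789 identifiers matched).

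The named genes were the 10 members, their 3 most alike genes, and up to 2 called genes each way per pathway list in the vehicle tissue comparison. A gene that this rule names is not reported here. Members, the 5 pathway lists and the 11 marker lists were chosen with earlier results of these data known. Alternatives changed the pseudocount, filter, scaling, groups fitted, trend, or left out 1 library.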

Additional observations from a re-analysis of the deposited data

Results flagged for a closer look

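In 40 groups of 5 libraries (10 genes in 4 groups), 6 had a highest library far from the other 4 by Dixon's test of the gap over the range. Chance flags about 1 in 20 groups of values without ties; where 4 libraries are at 0, as in 2 of the 6, any other value is flagged, so the number of flags is not read against that rate. NP vehicle library 6 accounted for 3 of them: Tnfrsf11a at 0.997 scaled FPKM (others 0.165 to 0.227), Atp6v0d2 at 1.6 (others 0.344 to 0.572) and Calcr at 0.079 (others listed at 0). Its summed macrophage markers were also the highest of the NP libraries, at 374 scaled FPKM, and their part was not tested. In AF, Tnfsf11 in MDL-800 library 28 was at 6.82 scaled FPKM (others 1.47 to 2.89) and Ocstamp in vehicle library 8 at 1.18 (others 0.405 to 0.609). Tnfsf11 in NP MDL-800 library 19 was at 0.0404 scaled FPKM while the other 4 were listed at 0.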

How the results depend on the processing

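In each tissue comparison 8 of 8 members were called with every library left out in turn. Under quantile normalization 7 were called in vehicle and 6 in MDL-800 libraries. Oscar lost its call in both, and Dcstamp in MDL-800 libraries. Most of the 8 reached the filter almost wholly through AF, so these counts support nothing. In both treatment comparisons and in the difference between them 0 members were called under every alternative. The tissue direction of the 8 members tested with limma held under every alternative. That of Calcr and Ocstamp held under the 4 and 5 alternatives run for them. Quantile normalization, the fit of all groups and the fit without trend were not run for these 2. Calcr in vehicle libraries was not called without a filter (limma adjusted p = 0.062). Treatment estimates near 0 changed sign. Quantile normalization gave -0.0061 for Tnfrsf11b and -0.0067 for Atp6v0d2 in AF. With 1 library left out, the NP treatment estimate ran from -0.058 to 0.0054 for Dcstamp, -0.39 to 0.34 for Acp5 and -0.018 to 0.012 for Calcr. The AF estimate ran from -0.16 to 0.20 for Tnfrsf11b, -0.069 to 0.28 for Oscar, -0.19 to 0.23 for Atp6v0d2 and -0.071 to 0.14 for Ocstamp. The difference between tissues ran from -0.17 to 0.10 for Tnfrsf11a and -0.21 to 0.13 for Ctsk. The cause was not tested. Over all genes, the 41 calls in NP under treatment ran from 2 to 189 with 1 library left out (189 without vehicle library 6), and were 70 under quantile normalization, 18 without scaling or without the trend, 16 and 7 with a lower filter or none, and 4 with all groups fitted. The sample titles share no replicate numbers between groups. Column names carry numbers that NP and AF partly share, and the labels do not say what the numbers stand for. A replicate block on them was added after the headers were seen. It kept only libraries whose number occurs in both tissues, so MDL-800 libraries 15, 18, 25 and 29 were left out. With it, 8 of 8 members were called in both tissue comparisons. That count has the same limit from the filter. Same-numbered libraries deviated together with r from -0.18 to 0.29 over 8 pairs. A weak correlation cannot show that such libraries came from different animals, so whether they are pairs is not known. The main fits used no pairs and took all libraries as independent. Depth limits Tnfsf11, Calcr, Oscar, Dcstamp and Ocstamp in NP, where values rest on a few fragments.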
